A study of Mus musculus with 5 samples.

Results

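Ifng encodes interferon gamma, the single type II interferon, and Ifngr1 and Ifngr2 encode the ligand-binding and the accessory chain of its receptor. Ifnar1 and Ifnar2 encode both chains of the receptor for type I interferons such as interferon beta. These 5 genes were chosen by name, as the rows for interferon gamma and for the type I and type II receptor chains, out of the 16498 genes of a single-cell RNA table from the atherosclerotic mouse aorta. All 5 were present in the table, and the questions were which cells held the ligand, which held both chains of a receptor, and whether either differed between genotypes. Each library was prepared from live cells of the aortic arch, sorted by exclusion of the dye DAPI, of mice that had eaten normal chow for 28 weeks. Apoe-/- mice (2 libraries) lack apolipoprotein E and develop atherosclerosis, and by the labels they carry both wild-type copies of Oasl1. Oasl1-/-Apoe-/- mice (3 libraries) also lack Oasl1 in every cell through a deletion of its promoter and exon 2, so the loss of Apoe is common to both groups. Cells were pooled from 6 mice, and whether per library or per group is not given in the sources used here. The library is therefore the replicate, and the spread between these libraries may be partly technical. The limma tests below pool this spread over genes. Their SEs and p-values therefore do not rest on the 5 libraries of a single gene alone, and can be far smaller than those libraries would give.

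Interferon gamma is released mainly by activated T cells and natural killer (NK) cells. It binds IFNGR1, and the assembly of IFNGR1 with IFNGR2 activates the kinases JAK1 and JAK2, and their signal induces guanylate-binding proteins, major histocompatibility complex (MHC) class II genes and chemokines such as Cxcl9. Type I interferons act through IFNAR1 and IFNAR2 with JAK1 and TYK2 on STAT2 and IRF9, among other factors, which induce antiviral genes such as Ifit1 and Isg15. In atherosclerotic lesions interferon gamma is a known product of lesional T cells, with macrophages, endothelial cells and smooth muscle cells among its known targets.

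The libraries held 3212 to 4338 cells and 16959976 to 19813039 unique molecular identifiers (UMIs, 1 per captured RNA molecule), with a median of 4495 to 5186.5 UMIs per cell. UMIs were recovered from the deposited log values, and levels are given as CP10K, the mean over cells of UMIs per 10000 UMIs of the cell. Cells were clustered without the 5 genes and 25 of 29 clusters were named from marker lists, which gave 7 classes with at least 20 cells in every library: smooth muscle-like (9127 cells), endothelial-like (1543), fibroblast-like (1132), macrophage-like (2362), monocyte-like (515), dendritic-like (403) and NK/T-like (743). The suffix is left out below, and since the names were rebuilt here, classes may differ from those of the original analysis. Smooth muscle markers were also high in the fibroblast class, at 74.5 to 98.3 CP10K summed over 8 genes. A total of 165 cell barcodes occurred in more than 1 library. For Oasl1 itself, 27 and 16 UMIs were counted with the wild-type Oasl1 genotype, and 299, 257 and 315 with the knockout. The 3′ tags lie outside the deleted promoter and exon 2. Why the counts were higher with the knockout label was not tested, and the genotype labels could not be checked from Oasl1 levels.

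Ifng (ENSMUSG00000055170) lies on the plus strand of chromosome 10 at chr10:118441046-118445892 (GRCm38, GENCODE annotation) and has 4 exons. Ifngr1 (ENSMUSG00000020009) lies elsewhere on the same chromosome, at chr10:19591949-19610229. The other 3 receptor genes are neighbours on the plus strand of chromosome 16. Ifnar2 (ENSMUSG00000022971, chr16:91372783-91405589), Il10rb, which encodes a chain of the interleukin-10 receptor (chr16:91406164-91425834), Ifnar1 (ENSMUSG00000022967, chr16:91485238-91507441) and Ifngr2 (ENSMUSG00000022965, chr16:91547072-91565623) lie in this order within 192841 bases, and Il10rb starts 574 bases after the end of Ifnar2. The 120 bases before each RefSeq start site (GRCm38.p6, plus strand, no exon of the gene within them) are printed as a description. A link between these sequences and the levels was not tested. Capitals mark CpG dinucleotides.
Ifng, chr10:118440926-118441045: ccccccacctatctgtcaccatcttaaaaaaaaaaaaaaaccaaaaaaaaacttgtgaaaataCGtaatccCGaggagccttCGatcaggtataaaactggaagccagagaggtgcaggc
Ifngr1, chr10:19591829-19591948: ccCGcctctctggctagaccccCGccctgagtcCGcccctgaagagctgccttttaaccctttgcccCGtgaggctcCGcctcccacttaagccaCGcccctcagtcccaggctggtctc
Ifngr2, chr16:91546939-91547058: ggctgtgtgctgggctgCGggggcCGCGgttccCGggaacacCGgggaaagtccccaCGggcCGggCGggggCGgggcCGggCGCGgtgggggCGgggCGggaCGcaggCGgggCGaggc
Ifnar1, chr16:91485095-91485214: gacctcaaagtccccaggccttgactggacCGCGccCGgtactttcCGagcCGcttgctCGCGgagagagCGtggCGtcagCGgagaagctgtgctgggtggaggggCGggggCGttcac
Ifnar2, chr16:91372663-91372782: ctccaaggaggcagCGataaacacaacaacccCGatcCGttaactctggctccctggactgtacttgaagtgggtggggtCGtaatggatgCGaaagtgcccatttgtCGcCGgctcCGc
Over the 250 bases upstream, the Ifng promoter held 6 CpG dinucleotides, the median of 32817 mouse promoters. Ifngr2 held 25, and 89.3% of promoters had fewer. Ifnar1 held 19 (80.3% had fewer), and Ifngr1 and Ifnar2 each held 11 (64.5% had fewer). The letters TTCNNNGAA, the core of the gamma-activated site, occurred once in the Ifng and once in the Ifnar2 window, read on both strands, and in 7.01% of all promoters. The interferon-stimulated response element, read on both strands, occurred in none of the 5 windows and in 2.97% of promoters.

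Ifng was measured in NK/T cells almost alone. Of 414 Ifng UMIs, 412 (99.5%) were in the 743 NK/T cells, and the 17517 other cells held 2. These 2 UMIs were in 1 endothelial cell and 1 smooth muscle cell of Oasl1-/-Apoe-/- replicate 1. None of the 2362 macrophages had an Ifng UMI, a count that allows a share of up to 0.127%, and the same limit was 0.744% for the 403 dendritic cells and 2.29% for the 131 B cells. These limits are on cells with an Ifng UMI, not on cells that express the gene. Of NK/T cells, 178 (24.0%, 95% Wilson interval 21.03 to 27.15) had an Ifng UMI at a median depth of 1769 UMIs, against 0.0110% of smooth muscle cells at a median of 4888 UMIs, where the gene is not known to be active. Intervals and limits here cover counting error only.

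The Ifng level of NK/T cells was 2.23 and 2.01 CP10K in the Apoe-/- libraries and 3.86, 3.57 and 2.44 CP10K in the Oasl1-/-Apoe-/- libraries. Every Oasl1-/-Apoe-/- library was above both Apoe-/- libraries, with group means of 3.29 ± 0.748 (SD, n = 3) and 2.12 ± 0.159 (SD, n = 2). The difference of 0.60 ± 0.19 (SE) on the log2(CP10K + 0.05) scale did not pass the test across all genes (adjusted p = 0.144, limma with Benjamini-Hochberg adjustment, threshold 0.05), in which 1.72% of 8295 genes passed in NK/T cells. Leaving out Oasl1-/-Apoe-/- replicate 3, the lowest of its group, gave a log2 difference of 0.80 (limma adjusted p = 0.0423). Across the alternatives tried the limma adjusted p ranged from 0.0217 to 0.586.

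More NK/T cells also had an Ifng UMI in the Oasl1-/-Apoe-/- libraries. The share was 14.8% and 19.0% in the Apoe-/- libraries and 28.9%, 28.0% and 23.7% in the Oasl1-/-Apoe-/- libraries, without overlap. Summed over libraries these were 36 of 215 cells (16.7%, 12.3 to 22.3) and 142 of 528 cells (26.9%, 23.3 to 30.8), at median depths of 1745 and 1776 UMIs. With every cell thinned to 1000 UMIs, which left out 12 Apoe-/- and 45 Oasl1-/-Apoe-/- NK/T cells below that depth, the shares were 13.1% ± 2.12 (SD, n = 2) and 18.1% ± 3.17 (SD, n = 3), and the groups then overlapped. The thinned difference of 5.01 percentage points had a two-sided exact permutation p of 0.3. Since 0.1 is the smallest p that 2 against 3 libraries allow, no such test can pass 0.05. Thinned to 2000 UMIs, a depth above the median of NK/T cells in both groups, the difference was 18.8 percentage points (exact permutation p = 0.1). That value rests on the deeper cells alone. Positive cells held a mean of 2.41 and 1.63 Ifng UMIs in the Apoe-/- and 2.58, 2.43 and 2.12 in the Oasl1-/-Apoe-/- libraries, which overlapped. Cells with 5 or more Ifng UMIs numbered 3 and 0 in the Apoe-/- and 7, 6 and 4 in the Oasl1-/-Apoe-/- libraries. The 3 cells of Apoe-/- replicate 1 carried 41.5% of its Ifng UMIs, against 38.8%, 40.3% and 35.6% in the Oasl1-/-Apoe-/- libraries.

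Most Ifng UMIs were in CD8 T cells, the cytotoxic T lymphocytes, gated here as NK/T cells with a UMI of Cd3d, Cd3e or Cd3g and of Cd8a or Cd8b1. The 470 CD8 T cells held 323 Ifng UMIs (78.4% of those in NK/T cells). T cells without a CD8 UMI (213 cells) held 71 (17.2%), and cells with an NK gene but no Cd3 UMI (39 cells) held 18 (4.37%). Since a gene can be missed at this depth, the CD8-negative gate may hold CD8 T cells. In CD8 T cells the Ifng level was 2.60 and 1.99 CP10K in the Apoe-/- and 4.57, 4.09 and 2.70 CP10K in the Oasl1-/-Apoe-/- libraries. The groups did not overlap, at 2.29 ± 0.427 (SD, n = 2) and 3.78 ± 0.968 (SD, n = 3), with a two-sided exact permutation p of 0.2. In CD8-negative T cells the levels were 2.37 and 2.10 CP10K against 3.01, 2.59 and 2.10 CP10K, and the groups overlapped (exact permutation p = 0.4).

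The share of CD8 T cells with an Ifng UMI was 16.9% (11.4 to 24.5) in Apoe-/- and 32.9% (28.2 to 38.1) in Oasl1-/-Apoe-/- aortas, summed over libraries. In CD8-negative T cells it was 15.6% (8.71 to 26.4) and 15.4% (10.5 to 22.1). Per library the share in CD8 T cells was 14.9% and 19.3% in the Apoe-/- and 37.0%, 37.7% and 24.1% in the Oasl1-/-Apoe-/- libraries. The intervals count cells of pooled libraries and are no test of genotype. Whether the genotype difference itself differed between these gates was not tested. Of the 32 CD8-negative T cells with a UMI of Cd4, the coreceptor of helper T cells, 8 had an Ifng UMI, and of 21 cycling NK/T cells 9 did. CD8 T cells made up 58.3% and 57% of NK/T cells in the Apoe-/- libraries and 62.4%, 67.0% and 67.1% in the Oasl1-/-Apoe-/- libraries.

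**Figure D1:**
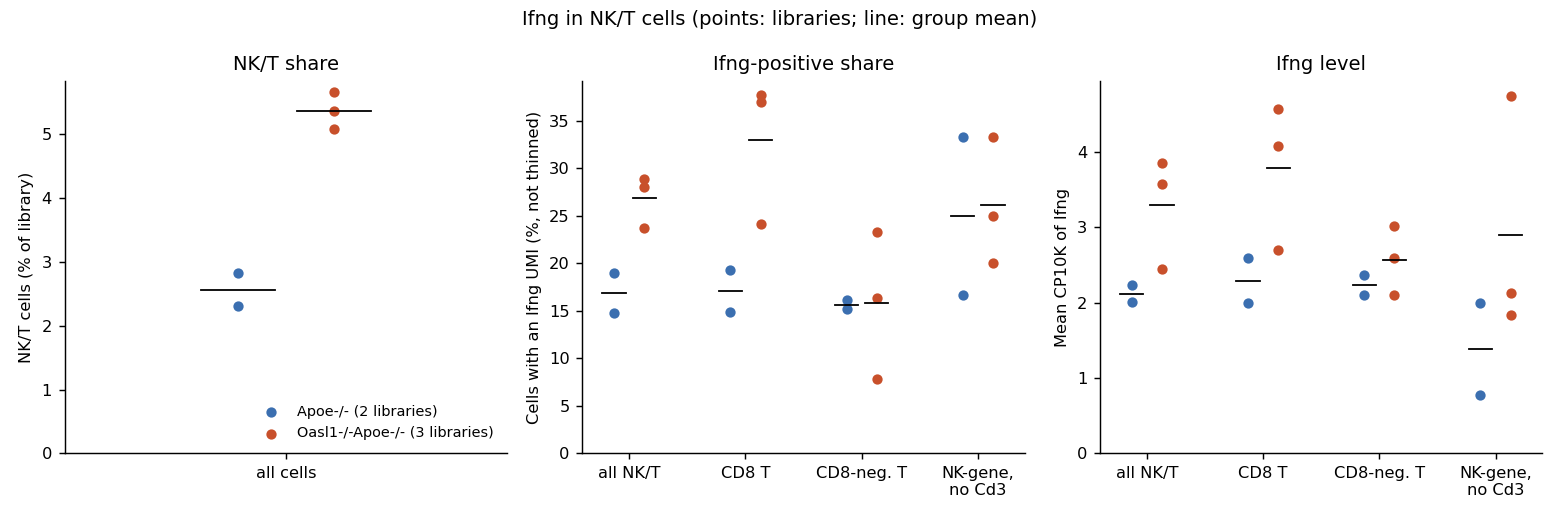
NK/T cells as a percentage of each library (left), the percentage of cells with an Ifng UMI without thinning (middle) and the Ifng level in mean CP10K (right), for all NK/T cells and for CD8 T, CD8-negative T and NK-gene cells. Points are libraries and lines are group means: the NK/T share runs from 2.31% to 2.82% in Apoe-/- and from 5.08% to 5.67% in Oasl1-/-Apoe-/- libraries, and the groups are apart in CD8 T cells but not in CD8-negative T cells.

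Ifng-positive and Ifng-negative NK/T cells were set side by side within each library, as a description without a test, at median depths of 1844.5 and 1759 UMIs. Positive cells had the higher level in 5 of 5 libraries for 5 genes of cytotoxic and T cells. These were Nkg7, a cytotoxic granule protein (mean over libraries 52.2 against 34.7 CP10K), Ccl5, a T cell-attracting chemokine (174 against 142), Klrd1, an NK receptor chain (3.96 against 2.55), Cd8a (6.73 against 4.54) and Cd3e (7.99 against 6.21). Positive cells had the lower level in 5 of 5 libraries for Ly6c2 (2.36 against 4.91 CP10K), for Ifngr2 (0.0143 against 0.265 CP10K, 37 UMIs in all) and for Ifngr1, at 7.44 ± 1.53 against 9.88 ± 1.23 CP10K (SD, n = 5). The granzymes Gzma and Gzmb and Tbx21, the transcription factor T-bet, were higher in positive cells in 3, 3 and 4 of 5 libraries. The other effector genes, Ifng regulators and receptor chains compared were higher in 1 to 4 of 5. Among them Prf1, the perforin gene, was higher in 4, Gzmk and Eomes in 2 and Il12rb2 in 1, so the genes compared did not move as 1 set.

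The receptor chains were found in every class, but each had its own order of classes. Ifngr1 was highest in NK/T cells, at 11.5 and 9.51 CP10K in the Apoe-/- and 7.97, 8.01 and 9.57 CP10K in the Oasl1-/-Apoe-/- libraries, 9.30 ± 1.43 over all 5 (SD). Dendritic cells (2.99 ± 0.618), monocytes (2.55 ± 0.215) and endothelial cells (2.51 ± 0.139) followed, with each step to the next of these classes within the spread of the paired differences over libraries. Order was compared between neighbouring classes alone. Macrophages (1.75 ± 0.0973), fibroblasts (0.809 ± 0.129) and smooth muscle cells (0.327 ± 0.0185 CP10K) came next, and each of these steps held in 5 of 5 libraries. The 743 NK/T cells held 14.0% of all Ifngr1 UMIs. These levels are shares of the UMIs of a cell, and median depth was 1769 UMIs in NK/T cells and 4884 in dendritic cells. Ifngr1 had 1276 UMIs in the 743 NK/T cells and 634 in the 403 dendritic cells. The gap in UMIs per cell was therefore smaller than that in CP10K.

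Ifngr2, without which IFNGR1 does not signal, had a different order. It was highest in macrophages, at 1.43 and 1.52 CP10K in the Apoe-/- and 1.66, 1.69 and 1.66 CP10K in the Oasl1-/-Apoe-/- libraries. Monocytes (1.47 ± 0.361) followed, a step within its spread. Dendritic cells (1.03 ± 0.0568) came next, a step of 0.444 ± 0.409 (SD) that held in 4 of 5 libraries. Smooth muscle cells (0.737 ± 0.0829) and fibroblasts (0.686 ± 0.0811) did not differ beyond their spread, and endothelial cells (0.334 ± 0.0771) were lower than fibroblasts in 5 of 5 libraries. NK/T cells were lowest, at 0.0553 and 0.277 CP10K in the Apoe-/- and 0.182, 0.417 and 0.0849 CP10K in the Oasl1-/-Apoe-/- libraries, a range that did not lie beyond the spread from endothelial cells. Smooth muscle cells, the most numerous class, held 42.0% of all Ifngr2 UMIs and NK/T cells 0.474%.

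Ifnar1 and Ifnar2 were highest in leukocytes. Ifnar1 was 1.04 ± 0.324 CP10K in NK/T cells, 1.01 ± 0.179 in monocytes and 0.973 ± 0.277 in dendritic cells. Each step to the next of these classes was within its spread. In UMIs per cell NK/T cells were below the other classes named here, with 173 Ifnar1 UMIs in 743 cells. Monocytes held 232 in 515 cells and dendritic cells 196 in 403 cells, at a greater median depth. In macrophages Ifnar1 was 0.601 ± 0.0710, a step of 0.372 ± 0.328 (SD) from dendritic cells that held in 4 of 5 libraries. It was lower in endothelial cells (0.216 ± 0.0642), fibroblasts (0.210 ± 0.0272) and smooth muscle cells (0.0997 ± 0.0120 CP10K), and the steps from macrophages to endothelial cells and from fibroblasts to smooth muscle cells held in 5 of 5 libraries. Ifnar2 was 1.30 ± 0.128 CP10K in macrophages and 1.23 ± 0.213 in monocytes, the latter above the 0.809 ± 0.110 of dendritic cells in 5 of 5 libraries. Fibroblasts (0.612 ± 0.0673) followed, a step of 0.197 ± 0.149 (SD) that held in 4 of 5 libraries. NK/T cells (0.552 ± 0.129) and endothelial cells (0.433 ± 0.0845) came next, each not beyond its spread from the class just above it. Smooth muscle cells (0.217 ± 0.0125) were below endothelial cells in 5 of 5 libraries. Macrophages held 34.6% of all Ifnar1 and 39.7% of all Ifnar2 UMIs.

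**Figure D2:**
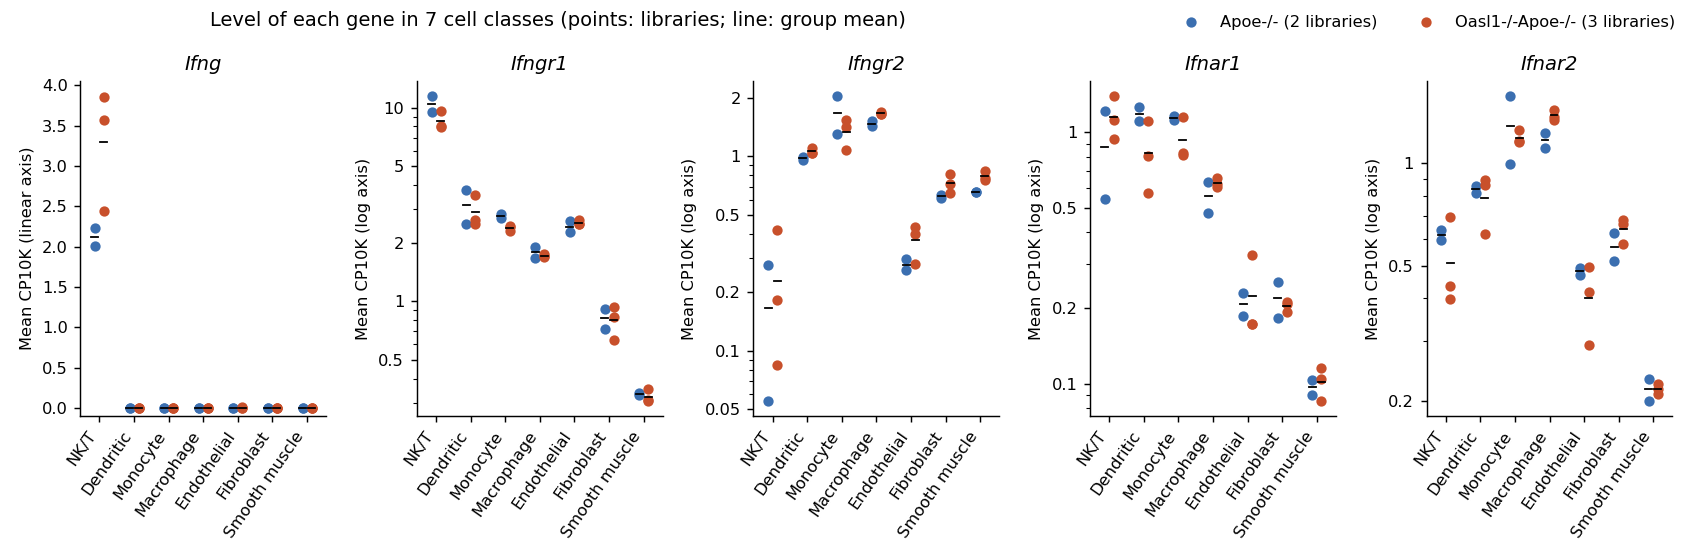
Level of each of the 5 genes in mean CP10K (y axis, linear for Ifng and logarithmic for the receptor chains) in 7 cell classes, with 1 point per library and a line at each group mean. Ifng stands above 0 in NK/T cells, Ifngr1 is highest and Ifngr2 lowest in NK/T cells, and Ifngr2 and Ifnar2 are highest in macrophages and monocytes.

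Within macrophages the receptor chains varied by cluster, and the clusters filled the genotypes unequally. Cells led by Ccl12, Ccl8 and Fcgr4 (583 cells), with the interferon-inducible chemokine genes Cxcl9 and Cxcl10 among its leading genes, made up 2.67% and 1.64% of macrophages in the Apoe-/- (8 and 5 cells) and 33.5%, 30.9% and 32.8% in the Oasl1-/-Apoe-/- libraries, so that their Apoe-/- values rest on few cells. The Gpnmb cluster described next made up 61.7% and 64.1% against 29.8%, 26.9% and 29.9%. These shares are stated as facts of the class, since genes that define the clusters differed between genotypes. In cells led by Fcrls, Cd72 and Adgre1 (891 cells) Ifngr2 was 1.76 and 2.20 CP10K in the Apoe-/- and 2.17, 2.15 and 1.99 CP10K in the Oasl1-/-Apoe-/- libraries. In cells led by the foam cell genes Gpnmb, Fabp5 and Lpl (888 cells) Ifngr2 was 1.27 and 1.12 CP10K in the Apoe-/- and 1.15, 1.06 and 1.30 CP10K in the Oasl1-/-Apoe-/- libraries. In CP10K the Gpnmb cluster was lower in all 5 libraries, also for Ifngr1 (1.49 ± 0.0441 against 2.16 ± 0.356 CP10K), Ifnar1 (0.480 ± 0.0345 against 0.798 ± 0.166) and Ifnar2 (1.10 ± 0.110 against 1.498 ± 0.198). Its cells were deeper, at a median of 1.67 times the library median of UMIs against 0.93 times in the Fcrls cluster. Summed UMIs were higher in the Gpnmb cluster for each chain, such as 1044 against 838 for Ifngr1. The lower level is thus a smaller share of a larger total. Among fibroblasts, cells led by Clec3b, a gene of the adventitia, had 0.929 ± 0.283 CP10K of Ifnar2 and cells led by Timp1 and Lum had 0.455 ± 0.0247 CP10K. Depth differed here too, at 0.68 and 1.65 times the library median. The Ifnar2 UMIs were 142 in 380 cells and 307 in 752 cells. These clusters were made from the same cells, so the values are a description.

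The balance of the chains moved across classes more for the interferon gamma receptor than for the type I receptor. The log2 ratio of Ifngr2 to Ifngr1 (mean CP10K, not scaled for transcript length, so only its movement between classes is read) was 1.17 ± 0.209 in smooth muscle cells (SD, n = 5). It was -0.14 ± 0.136 in macrophages, -0.23 ± 0.263 in fibroblasts, -0.82 ± 0.338 in monocytes and -1.52 ± 0.315 in dendritic cells. It was -2.94 ± 0.310 in endothelial cells, or -2.33 from summed UMIs, and -5.87 ± 1.38 in NK/T cells. Smooth muscle cells stood at one end and NK/T cells, which held the Ifng UMIs, at the other. The log2 ratio of Ifnar2 to Ifnar1 ran from 1.55 ± 0.194 in fibroblasts to -0.88 ± 0.749 in NK/T cells.

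The ratio of Ifngr2 to Ifngr1 was also read per library. In macrophages it was -0.22 and -0.33 in the Apoe-/- and -0.04, -0.01 and -0.08 in the Oasl1-/-Apoe-/- libraries on the log2 scale. The groups did not overlap (exact permutation p = 0.1, two-sided). Within the Fcrls and the Gpnmb cluster they did, at -0.06 and -0.32 against 0.10, 0.14 and -0.16 and at -0.27 and -0.43 against -0.30, -0.50 and -0.21. In smooth muscle cells it was 0.96 and 0.99 against 1.15, 1.28 and 1.46, also without overlap (exact permutation p = 0.2).

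**Figure D3:**
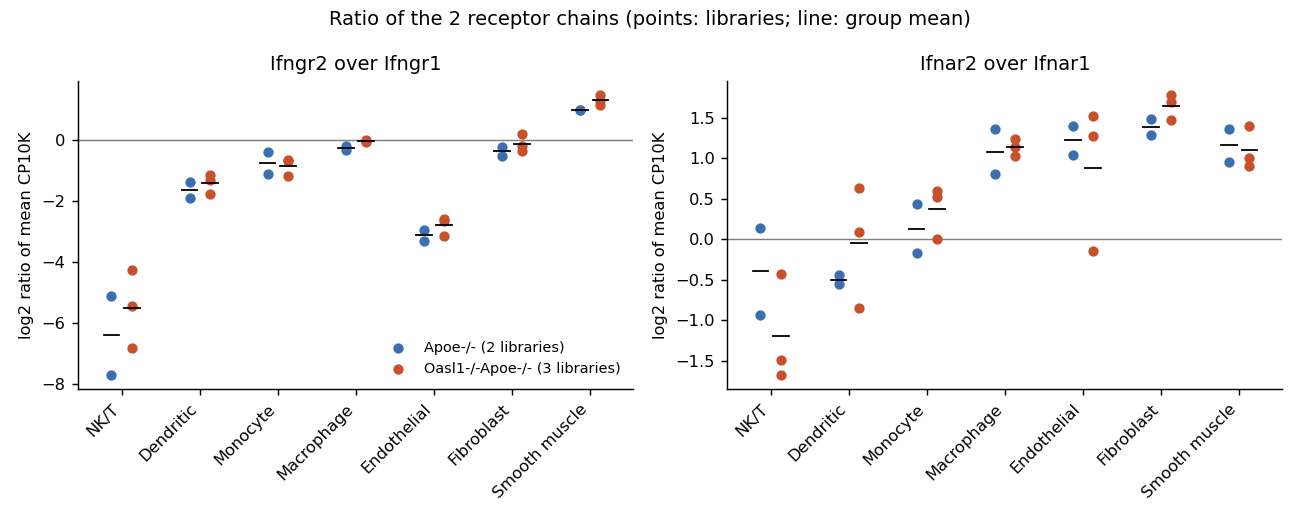
Log2 ratio of mean CP10K of Ifngr2 to Ifngr1 (left) and of Ifnar2 to Ifnar1 (right) in 7 cell classes, with 1 point per library and a line at each group mean. The left ratio is above 0 in smooth muscle cells in all 5 libraries and lies between -4.26 and -7.69 in NK/T cells.

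Cells in which both chains of a receptor were counted were most frequent among macrophages before depth was matched. After it the share over all cells was highest in monocytes, which were above macrophages in 3 of 5 libraries for the interferon gamma receptor and in 4 of 5 for the type I receptor. A UMI of Ifngr1 and of Ifngr2 was found in 34.8% (32.9 to 36.7) of macrophages, 28.5% of monocytes, 23.1% of dendritic cells, 16.1% of fibroblasts, 8.17% of endothelial cells, 4.71% of smooth muscle cells and 2.56% (1.64 to 3.96) of NK/T cells. Thinned to 1000 UMIs per cell, the shares were 2.43% in macrophages, 3.23% in monocytes, 2.44% in dendritic cells, 0.878% in NK/T cells, 0.676% in endothelial cells, 0.558% in fibroblasts and 0.230% in smooth muscle cells. The thinned share of NK/T cells was 0.227% and 0.554% in the Apoe-/- and 0.0948%, 2.81% and 0.282% in the Oasl1-/-Apoe-/- libraries, so that the value over all cells rested on Oasl1-/-Apoe-/- replicate 2. Ifnar1 together with Ifnar2 was found in 16.5% of macrophages, 14.2% of monocytes, 12.4% of dendritic cells, 4.06% of fibroblasts, 2.92% of endothelial cells, 1.88% of NK/T cells and 0.460% of smooth muscle cells. Thinned, this pair was found in 1.13% of monocytes, 0.745% of macrophages, 0.743% of dendritic cells, 0.553% of NK/T cells, 0.152% of fibroblasts, 0.0824% of endothelial cells and 0.0160% of smooth muscle cells. Between genotypes 49 thinned shares of 1 gene or a pair were compared, and the smallest exact permutation p adjusted over them (Benjamini-Hochberg) was 0.774.

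The Ifngr2 UMIs of NK/T cells were concentrated in a few cells. There were 37 UMIs in 30 cells, of which 20 (66.7%) were CD8-negative T cells, while 27.1% of the NK/T cells without an Ifngr2 UMI were. None of the 30 had a Cd4 UMI. CD8 T cells, at 470 cells, held 9 Ifngr2 UMIs, and the 39 NK-gene cells held 0. A UMI of 1 of 9 macrophage markers was present in 26.7% of the Ifngr2-positive and 14.9% of the other NK/T cells, at median depths of 2158 and 1761 UMIs, and the part of such markers in this count was not tested. Ifngr1, by contrast, had a UMI in 72.1% of NK/T cells.

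The genes whose log2 level over 11 classes was most like that of each member were listed by Pearson's r, as a description over classes that share libraries. They were C2cd4b, Prss2 and Ubash3a for Ifng (r of at least 0.9999, all with their highest level in NK/T cells). Ifng was counted almost only in NK/T cells, so any gene held by that class alone has an r near 1 with it. For Ifngr1 they were Prkch (0.933), Madd (0.919) and H2-Q7 (0.916). For Ifngr2 they were BC028528 (0.950), Rnf130 (0.924) and Pid1 (0.906). For Ifnar1 they were Llph (0.959), Malt1 (0.955) and Fau (0.954), and for Ifnar2 Tcirg1 (0.952), Tmem189 (0.951) and Trf (0.945). Between the partner chains r was -0.0763 for Ifngr1 with Ifngr2 and 0.347 for Ifnar1 with Ifnar2.

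In the whole aorta all 5 genes rose in Oasl1-/-Apoe-/- mice. Ifng was 0.0630 and 0.0463 CP10K in the Apoe-/- and 0.198, 0.202 and 0.131 CP10K in the Oasl1-/-Apoe-/- libraries. The difference was 1.11 ± 0.14 on the log2(CP10K + 0.05) scale (SE; limma adjusted p = 0.000111), which is also the scale of the differences below. The Apoe-/- levels of Ifng lie near the 0.05 added, which lowers this difference. Without the added 0.05 the group means differed 3.24-fold. Ifnar2 was 0.431 and 0.358 CP10K against 0.632, 0.576 and 0.607 (0.56 ± 0.08, limma adjusted p = 0.000204). Ifnar1 was 0.228 and 0.220 CP10K against 0.346, 0.350 and 0.334 (0.52 ± 0.06, limma adjusted p = 6.95e-05). Every Oasl1-/-Apoe-/- library was above both Apoe-/- libraries for all 5 genes, as it was for 28.4% of the genes tested. Ifngr1 was 1.15 and 1.01 CP10K against 1.39, 1.40 and 1.44 (0.38 ± 0.06, limma adjusted p = 0.0006), and Ifngr2 was 0.696 and 0.696 CP10K against 0.914, 0.870 and 0.927 (0.35 ± 0.05, limma adjusted p = 0.000389). Of 9836 genes tested in the whole aorta 41.1% passed in either direction and 20.5% rose.

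The makeup of the libraries differed along with these levels. NK/T cells made up 2.82% and 2.31% of the Apoe-/- and 5.08%, 5.67% and 5.36% of the Oasl1-/-Apoe-/- libraries, 2.10-fold higher (exact permutation p = 0.1, two-sided). Macrophages made up 7.36% and 7.01% against 17.3%, 17.2% and 19.1%, and smooth muscle cells 60.05% and 62.13% against 40.4%, 40.8% and 40.2%. In whole-tissue values, fewer or more cells of a type and less or more RNA per cell cannot be told apart. With the class levels of each library weighted to the same class shares, 6.58% of 9815 genes rose, and 1 of the 5 genes still did: Ifngr2, by 0.20 ± 0.05 (limma adjusted p = 0.0348). The weighted log2 difference was 0.43 ± 0.12 for Ifng (limma adjusted p = 0.0535), 0.12 ± 0.07 for Ifnar2 (0.324), 0.11 ± 0.06 for Ifnar1 (0.311) and -0.11 ± 0.05 for Ifngr1 (0.203), so that the direction for Ifngr1 turned.

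Within single classes, 1 of 29 tests on the 5 genes passed. Ifngr2 in smooth muscle cells was 0.655 and 0.654 CP10K in the Apoe-/- and 0.779, 0.752 and 0.846 CP10K in the Oasl1-/-Apoe-/- libraries, and rose by 0.26 ± 0.07 on the log2 scale (limma adjusted p = 0.0305). Of 8987 genes tested in smooth muscle cells, 6.4% passed and 4.21% rose. The call was lost without Apoe-/- replicate 2 (limma adjusted p = 0.0613), without Oasl1-/-Apoe-/- replicate 1 (0.0900) or without Oasl1-/-Apoe-/- replicate 3 (0.158), while the difference stayed between 0.21 and 0.29. Beside it, the summed level of 9 macrophage markers in the smooth muscle class was 0.252 to 0.254 CP10K in Apoe-/- and 0.527 to 0.735 CP10K in Oasl1-/-Apoe-/- libraries, with 5 of the 9 higher in every Oasl1-/-Apoe-/- library and 0 of them at 0. That of 13 NK/T markers, 2 of them at 0, was 0.00952 to 0.0120 against 0.0235 to 0.0305 CP10K. The part of such markers in the Ifngr2 result was not tested.

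No other test of the 5 genes within a class passed, and 4 of these 28 had an unadjusted limma p under 0.05. These were Ifng (described above) and Ifngr1 in NK/T cells and Ifngr2 and Ifnar2 in macrophages. Ifnar2 in macrophages was 1.23 and 1.11 CP10K in the Apoe-/- and 1.37, 1.34 and 1.44 CP10K in the Oasl1-/-Apoe-/- libraries, without overlap (log2 difference 0.23 ± 0.09, limma adjusted p = 0.0806). Without Apoe-/- replicate 1 it passed, at 0.30 (limma adjusted p = 0.0265). Ifngr2 in macrophages also lay higher in every Oasl1-/-Apoe-/- library (0.17 ± 0.08, limma adjusted p = 0.154). Within the Fcrls and the Gpnmb cluster the groups overlapped for Ifngr2, and for Ifnar2 they overlapped in the first and not in the second, where it was 1.01 and 0.969 against 1.25, 1.12 and 1.13 CP10K. Ifngr1 in NK/T cells had a log2 difference of -0.30 ± 0.12 (limma adjusted p = 0.324), and in the CD8 T gate it was 9.59 and 9.46 CP10K in the Apoe-/- against 6.79, 7.17 and 8.04 CP10K in the Oasl1-/-Apoe-/- libraries, where the groups did not overlap (exact permutation p = 0.1). The remaining differences ran from -0.53 (Ifnar1 in dendritic cells) to 0.46 (Ifnar1 in NK/T cells).

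The shares of genes passing in the other classes were 16.9% in macrophages, 3.86% in monocytes, 3.73% in fibroblasts, 3.37% in endothelial cells and 1.69% in dendritic cells. The log2 difference of Ifngr2 was 0.35 ± 0.23 in endothelial cells, 0.20 ± 0.15 in fibroblasts, 0.12 ± 0.23 in dendritic cells, 0.40 ± 0.57 in NK/T cells and -0.28 ± 0.22 in monocytes, none past the threshold. Differences of the genotype effect between classes were tested for 4 pairs of classes. Of 16 tests 0 passed with limma and 1 had an unadjusted p under 0.05 (Ifnar2, macrophages minus smooth muscle cells, 0.22 ± 0.09, adjusted p = 0.195). Over all genes, 3.63% passed for macrophages minus smooth muscle cells, 0.0121% for endothelial minus smooth muscle cells, 0.112% for macrophages minus endothelial cells and 0.0585% for NK/T cells minus macrophages. The effect on the receptor chains is therefore not shown to differ between these classes.

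**Figure D4:**
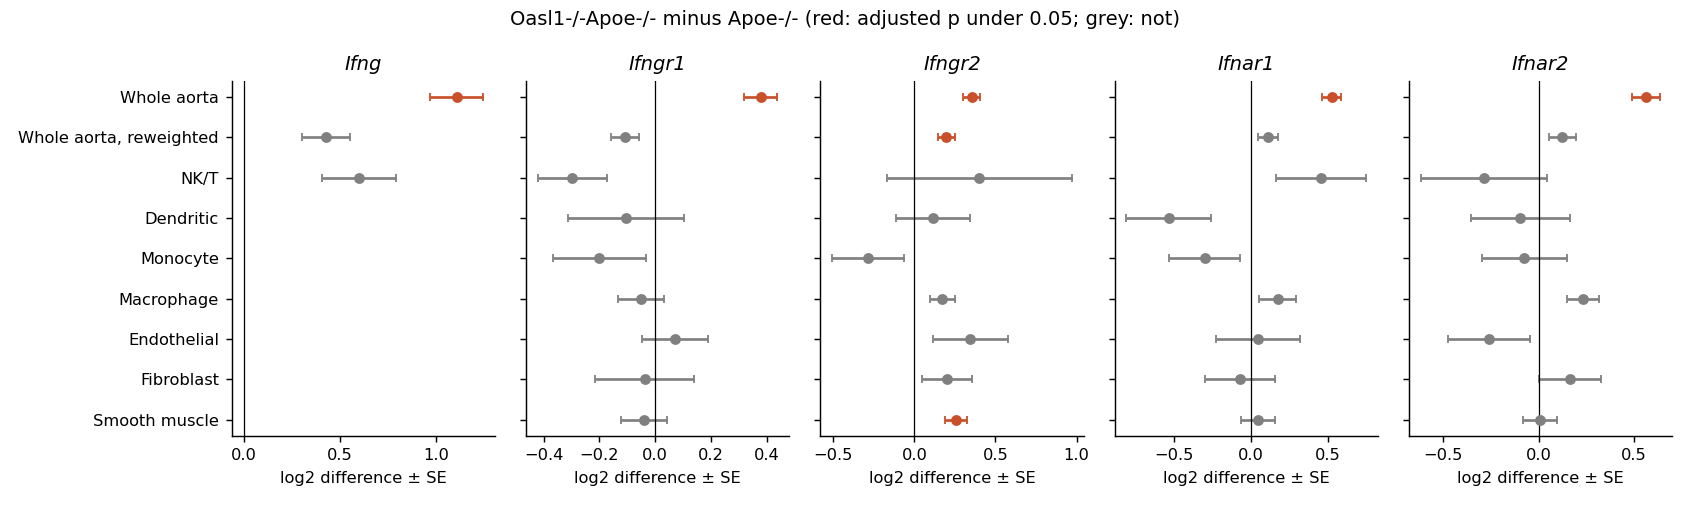
Difference in log2(mean CP10K + 0.05) between Oasl1-/-Apoe-/- and Apoe-/- libraries (x axis, bars are SE) for each gene. Rows (y axis) are the whole aorta, the whole aorta weighted to the same class shares and 7 classes. Points are red where the limma adjusted p was under 0.05. All 5 genes are red in the whole aorta, and below that Ifngr2 alone is, in the weighted aorta and in smooth muscle cells.

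The genes downstream of the receptors are given from lists of the pathway. Of 6 genes of receptor-proximal signalling (Jak1, Jak2, Tyk2, Stat2, Stat3 and Irf9), 3 rose in the whole aorta, 2 in macrophages and 1 each in smooth muscle cells, fibroblasts and NK/T cells. None passed with limma in the other 3 classes, where 4 of 18 tests had an unadjusted p under 0.05. Of all genes, 20.5% rose in the whole aorta. The share of all genes passing was 16.9% in macrophages, 6.4% in smooth muscle cells, 3.73% in fibroblasts and 1.72% in NK/T cells. Irf9, a DNA-binding subunit of the complex formed on type I interferon signalling, was 0.278 and 0.219 CP10K in macrophages of the Apoe-/- and 0.444, 0.503 and 0.373 CP10K of the Oasl1-/-Apoe-/- libraries (0.71 ± 0.14, limma adjusted p = 0.00289). In NK/T cells Irf9 was 0.0745 and 0.160 against 0.665, 0.572 and 0.594 CP10K (2.03 ± 0.40, limma adjusted p = 0.0033). The groups did not overlap in either class, and the NK/T call was lost without Oasl1-/-Apoe-/- replicate 1 (limma adjusted p = 0.0785). Stat2, a subunit of the same complex, rose in macrophages from 0.0143 and 0.0472 to 0.175, 0.148 and 0.193 CP10K (1.48 ± 0.20, limma adjusted p = 7.3e-05). For Irf9 and Stat2 the groups overlapped within the Fcrls cluster and not within the Gpnmb cluster. Jak1, the kinase bound by IFNGR1 and IFNAR2, rose in the whole aorta by 0.14 ± 0.05 (limma adjusted p = 0.0487), a difference of -0.09 with weighted class shares, and the call was lost without any 1 library other than Apoe-/- replicate 2 (limma adjusted p 0.0904 to 0.143).

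Genes known to respond to interferon gamma were taken as a list of 22. This list and that of the type I genes below were chosen with earlier results of these data known. In the whole aorta 19 of 19 tested rose, with a median log2 difference of 1.31 against -0.03 for all genes. In macrophages 16 of 18 rose (median 0.87 against -0.01), in endothelial cells 14 of 18 (1.26 against -0.02), in fibroblasts 12 of 16 (1.59 against 0.01) and in smooth muscle cells 7 of 10 (0.94 against 0.01). In the classes with fewer cells 4 of 18 rose in dendritic cells (0.92 against 0.05), 2 of 16 in monocytes (0.29 against -0.03) and 1 of 14 in NK/T cells (1.03 against 0.06). Of all genes, 20.5% rose in the whole aorta. The share of all genes passing was 16.9% in macrophages, 3.37% in endothelial cells, 3.73% in fibroblasts and 6.4% in smooth muscle cells. It was 1.69% in dendritic cells, 3.86% in monocytes and 1.72% in NK/T cells. Cd74, the MHC class II invariant chain, was 2.19 and 1.20 CP10K in endothelial cells of the Apoe-/- and 10.0, 12.2 and 13.5 CP10K of the Oasl1-/-Apoe-/- libraries (2.83 ± 0.13, limma adjusted p = 2.53e-21). Beside it, 9 macrophage markers in endothelial cells summed to 0.649 to 1.24 against 2.29 to 4.06 CP10K, with 5 higher in every Oasl1-/-Apoe-/- library and 0 at 0. There 8 fibroblast markers, 0 at 0, summed to 9.28 to 9.63 against 14.8 to 23.5 CP10K, with 5 higher in every such library, and 13 NK/T markers, 3 at 0, to 0.0470 to 0.108 against 0.120 to 0.624 CP10K, with 1 higher. The part of these markers in the endothelial results was not tested. Gbp2, a guanylate-binding protein, rose in macrophages from 0.177 and 0.0925 to 1.16, 0.906 and 0.867 CP10K (2.50 ± 0.17, limma adjusted p = 9.69e-08). By cluster it was 0 and 0.0495 against 0.146, 0.105 and 0.132 CP10K in the Fcrls cluster, 0.150 and 0.0281 against 0.101, 0.212 and 0.232 in the Gpnmb cluster, and 3.17 and 3.50 against 3.21, 2.61 and 2.28 in the Ccl12 cluster, with overlap in the last 2. With classes set by a per-cell marker gate the difference was 1.56 and still passed with limma. The 1 gene of the list that rose in NK/T cells was Gbp4, from 0.263 and 0.198 to 0.816, 0.876 and 0.715 CP10K (1.61 ± 0.33, limma adjusted p = 0.00545), a call lost without Oasl1-/-Apoe-/- replicate 1 (0.0785) or 2 (0.0549).

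Genes known to respond to type I interferon (15 on the list) rose in 14 of 14 tested in macrophages (median 1.90), 12 of 12 in the whole aorta (1.98), 4 of 4 in smooth muscle cells (1.70), 10 of 14 in monocytes (1.86), 8 of 11 in endothelial cells (1.25), 8 of 14 in dendritic cells (1.92), 7 of 11 in fibroblasts (1.46) and 5 of 11 in NK/T cells (1.67). Isg15, a ubiquitin-like antiviral protein, was 0.686 and 0.620 CP10K in macrophages of the Apoe-/- and 3.55, 3.43 and 3.34 CP10K of the Oasl1-/-Apoe-/- libraries (2.31 ± 0.08, limma adjusted p = 5.34e-11). Within the Fcrls cluster Isg15 was 0.880 and 0.663 against 0.567, 0.785 and 0.990 CP10K, with overlap, and within the Gpnmb cluster 0.303 and 0.297 against 1.37, 0.931 and 1.04 CP10K, without. In smooth muscle cells Isg15 was 0.0684 and 0.0626 against 0.313, 0.351 and 0.351 CP10K (1.75 ± 0.09, limma adjusted p = 6.22e-10). Both lists hold genes that respond to either interferon type, so neither is a measure of 1 ligand. Of all genes, 20.5% rose in the whole aorta and 1.69% to 16.9% passed within the classes. The median log2 difference over all genes lay between -0.03 and 0.06 in these comparisons. In NK/T cells, 9 macrophage markers, 2 of them at 0, summed to 0.414 to 0.718 CP10K in Apoe-/- and 0.951 to 1.40 CP10K in Oasl1-/-Apoe-/- libraries, and 8 fibroblast markers, 1 of them at 0, to 0.212 to 0.489 against 1.48 to 2.61 CP10K, with 4 higher in every Oasl1-/-Apoe-/- library. In fibroblasts the macrophage markers, 1 at 0, summed to 0.520 to 0.535 against 1.14 to 1.68 CP10K. Their part in these counts was not tested.

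**Figure D5:**
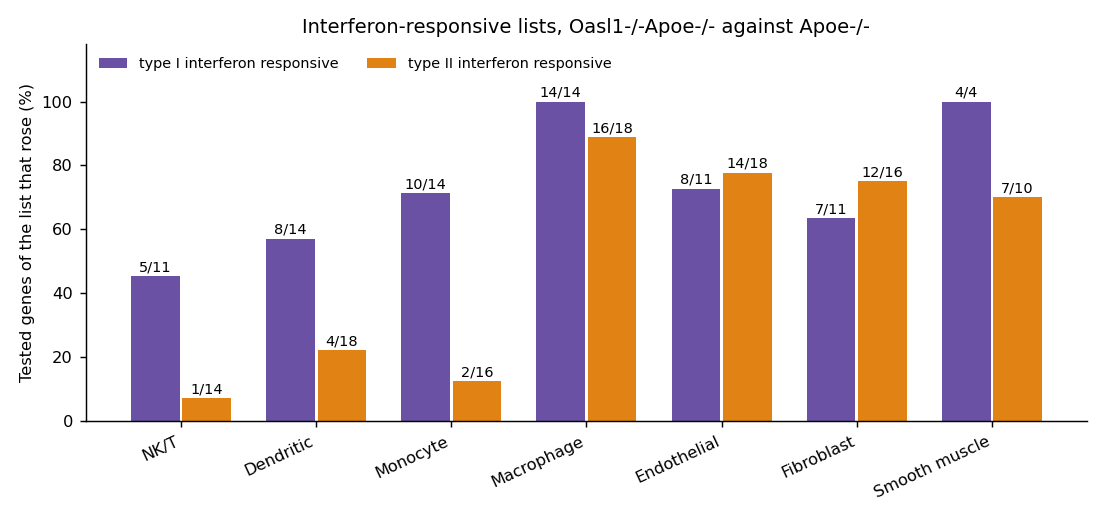
Percentage of the tested genes of each interferon-responsive list that rose in Oasl1-/-Apoe-/- libraries (y axis, limma adjusted p under 0.05) in 7 cell classes, with the count over the number tested above each bar. The type II bar is at 16/18 in macrophages and 1/14 in NK/T cells, and the type I bar at 14/14 and 5/11.

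Negative regulators of the receptors moved in both directions. In the whole aorta 6 of 8 rose and 2 fell, where 41.1% of all genes passed and 20.5% rose. In macrophages 3 of 8 rose, where 16.9% of all genes passed. Socs3, an inhibitor of cytokine receptor signalling, was 3.44 and 3.40 CP10K in macrophages of the Apoe-/- and 4.97, 5.36 and 5.12 CP10K of the Oasl1-/-Apoe-/- libraries (0.59 ± 0.06, limma adjusted p = 1.23e-05). Within the Gpnmb cluster the groups overlapped for Socs3, at 2.02 and 1.52 against 1.82, 2.16 and 2.01 CP10K, while in the Fcrls cluster every Oasl1-/-Apoe-/- library was higher and in the Ccl12 cluster every one was lower. Usp18, a protease that binds IFNAR2 and dampens its signalling, also stands on the type I list and rose in macrophages by 2.48 ± 0.17 (limma adjusted p = 6.35e-08), with overlap of the groups within the Fcrls and the Ccl12 cluster and none within the Gpnmb cluster. In NK/T cells Usp18 is listed at 0 in both Apoe-/- libraries and was 0.681, 0.771 and 0.384 CP10K in the Oasl1-/-Apoe-/- libraries. Ptpn1, a phosphatase of JAK kinases, fell in smooth muscle cells from 0.420 and 0.438 to 0.326, 0.345 and 0.344 CP10K (-0.30 ± 0.08, limma adjusted p = 0.0223; 0.0560 to 0.113, not passing, without any 1 library other than Apoe-/- replicate 1) and rose in the whole aorta by 0.31 ± 0.05 (limma adjusted p = 0.00057), a difference of -0.14 with weighted class shares.

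Of 13 genes that induce or control Ifng, such as interleukin-12, interleukin-18 and their receptors, 9 were tested in NK/T cells. None of the 9 passed with limma, 3 had an unadjusted p under 0.05, and the median was 0.18 against 0.06 for all genes. Of 4 tested in the whole aorta 2 rose, where 20.5% of all genes did. Il18, the interleukin-18 gene, was 0.0387 and 0.0427 CP10K against 0.111, 0.0874 and 0.0988 (0.71 ± 0.09, limma adjusted p = 9.05e-05), and Eomes, a transcription factor of cytotoxic lymphocytes, was 0.0385 and 0.0184 against 0.0856, 0.0767 and 0.0848 (0.77 ± 0.11, limma adjusted p = 0.000254). In macrophages 1 of 2 rose: Il15, a growth factor of CD8 T and NK cells, was 0.118 and 0.139 CP10K against 0.240, 0.233 and 0.257 (0.72 ± 0.15, limma adjusted p = 0.00312). Within each of the 3 macrophage clusters the groups overlapped for Il15.

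Among 11 other interferon ligands and receptors, most were too low to test. Il10ra and Il10rb, the chains of the interleukin-10 receptor, rose in the whole aorta by 0.99 ± 0.07 (limma adjusted p = 2.00e-06) and 0.72 ± 0.06 (9.63e-06), and Il10ra rose in NK/T cells from 0.159 and 0.208 to 0.648, 0.832 and 0.564 CP10K (1.64 ± 0.36, limma adjusted p = 0.0102), a call lost without Oasl1-/-Apoe-/- replicate 1 (0.102) or 2 (0.127). Ifnb1, which encodes interferon beta, a ligand of the type I receptor, was 0.0766 CP10K in macrophages of Apoe-/- replicate 1, listed at 0 in replicate 2 and 0.103, 0.146 and 0.0989 CP10K in the Oasl1-/-Apoe-/- libraries. It passed the test (1.05 ± 0.29, limma adjusted p = 0.0216), but not without Apoe-/- replicate 2 (0.38, 0.229), without Oasl1-/-Apoe-/- replicate 1 (1.10, 0.0503) or without Oasl1-/-Apoe-/- replicate 2 (0.92, 0.0990).

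The T and NK effector genes that accompany Ifng moved in both directions within NK/T cells, where 3 of 12 tested rose and 1 fell. Of all genes 1.72% passed in this class. Ccl5 was 120 and 131 CP10K in the Apoe-/- and 148, 166 and 179 CP10K in the Oasl1-/-Apoe-/- libraries (0.39 ± 0.06, limma adjusted p = 0.000332). Gzmk, the granzyme of memory-type CD8 T cells, was 2.69 and 2.63 against 4.49, 4.93 and 3.82 CP10K (0.71 ± 0.16, limma adjusted p = 0.0145), and Nkg7 rose by 0.40 ± 0.09 (limma adjusted p = 0.00804). Gzma, the other granzyme called, fell from 10.0 and 19.2 to 4.20, 6.58 and 7.73 CP10K (-1.21 ± 0.20, limma adjusted p = 0.000368). Without Apoe-/- replicate 2 the difference was -0.74 and did not pass (limma adjusted p = 0.114), and with the marker gate it was -0.78 and passed. The call on Gzmk was lost without Apoe-/- replicate 2 (limma adjusted p = 0.0552) and without Oasl1-/-Apoe-/- replicate 1 (0.139) or 2 (0.158), and that on Nkg7 without Apoe-/- replicate 1 (0.0522) and without Oasl1-/-Apoe-/- replicate 1 (0.0686) or 3 (0.199). Among 11 effector genes tested in the whole aorta 10 rose, where 20.5% of all genes did. Nkg7 rose there by 1.43 ± 0.10 (limma adjusted p = 1.58e-06), beside the 2.10-fold higher share of NK/T cells.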

How the data were processed

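Aortic arch cells of 5 libraries (2 Apoe-/-, 3 Oasl1-/-Apoe-/-) were profiled by 3′ droplet RNA sequencing. Per the submitters' processing notes and methods, the authors used Cell Ranger 3.1.0 with mm10 and Seurat 4.0.3, kept cells with over 200 genes and under 10% mitochondrial reads, removed doublets with DoubletFinder (so no caller was run here), and deposited the natural log of 1 + UMIs per 10000 of each cell. Very rare genes, in under 3 cells of 1 library, appear to be set to 0. UMIs were recovered by dividing by the smallest value of each cell (100% whole within 0.01).

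Cells were clustered (Python 3.11.15, scikit-learn 1.9.0; 2000 variable genes without the 5 genes, 12 components, 20 neighbours, resolution 1) and clusters named by at least 3 markers, each 2-fold higher and in 10% of cells. A per-cell marker gate gave the same class for 93.54% of named cells, with 2373 cells near its limits. Groups follow the genotype labels. Library means of CP10K were tested with limma 3.58.1 (R 4.3.3, trend) on log2(CP10K + 0.05), for genes with a mean of at least 0.05 CP10K, with Benjamini-Hochberg adjustment over all genes of a class. Shares and gated subsets were compared by exact two-sided permutation of the 5 libraries, shares with 95% Wilson intervals. Depth was 3212 to 4338 cells per library, so counts of rare RNAs limit the precision. 1 gene of the signalling list is not reported here. Scripts were tested on simulated data. The 5 genes and the lists were chosen with earlier results of these data known. Genes of a list were named where they passed the test, at most 4 per list and comparison with the smallest adjusted p, together with gate and marker genes and the 3 genes most alike in class pattern. Alternatives were other pseudocounts, filters, limma-voom, means of the deposited log values, each library left out, a replicate block, another resolution, the marker gate, equal class shares and other thinning depths. Levels by the marker gate were added after seeing the data.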

Additional observations from a re-analysis of the deposited data

Results flagged for a closer look

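Of the list genes, 6 had a genotype difference that itself differed between cell classes, tested with limma on the within-library difference of classes with Benjamini-Hochberg adjustment over all genes. For macrophages minus smooth muscle cells the difference of the log2 changes was 2.21 ± 0.20 (SE) for Gbp2 (limma adjusted p = 0.00591) and 1.52 ± 0.13 for Iigp1, an interferon-inducible GTPase (limma adjusted p = 0.00505). It was 1.39 ± 0.20 for Ifit3, an antiviral protein (limma adjusted p = 0.0183), 0.60 ± 0.10 for Gbp3 (limma adjusted p = 0.0275) and 0.56 ± 0.10 for Isg15 (limma adjusted p = 0.0391). On the log2(CP10K + 0.05) scale all 5 changed more in macrophages. Low levels lie near the 0.05 added, which lowers their change. Ifit3 had group means of 0.0149 and 0.124 CP10K in smooth muscle cells and 0.160 and 1.40 CP10K in macrophages. Isg15 had 0.0655 and 0.338 CP10K in smooth muscle cells and 0.653 and 3.44 CP10K in macrophages. A larger fold change in macrophages is therefore not shown for Ifit3 and Isg15. For NK/T cells minus macrophages it was -2.18 ± 0.20 for Ly6c2, a surface protein of monocytes and memory T cells (limma adjusted p = 0.0416). This rests on a macrophage difference of 2.55 for Ly6c2 with classes from clusters, which was -0.04 with the per-cell marker gate (limma adjusted p = 0.93). These were 6 of 97 tests on named list genes, Ifng and the receptor chains (6.19%), and none was on Ifng or a receptor chain. The list genes tested had already passed a genotype test within a class in these data, so this share is no result about the lists. Over all genes, 3.63% passed for macrophages minus smooth muscle cells and 0.0585% for NK/T cells minus macrophages. The shares were 0.0121% for endothelial minus smooth muscle cells and 0.112% for macrophages minus endothelial cells.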

How the results depend on the processing

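In the whole aorta 4045 genes passed the threshold, and 3212 to 4019 did with 1 library left out, while the 5 genes passed in each of these fits. With libraries weighted to the same class shares 989 genes passed and 1 of the 5, and 3 whole-aorta differences turned, Ifngr1 to -0.11, Jak1 to -0.0860 and Ptpn1 to -0.14. Within classes 3149 tests of a gene in a class passed, and 1986 to 3957 with 1 library left out. A gene can count in more than 1 class here. The number of tests on the 5 genes that passed within classes was 1, but 0 with no filter on low values, 0 with the per-cell marker gate and 0 to 2 with 1 library left out. Ifng in NK/T cells ran from 0.47 to 0.80 with 1 library left out. The replicate numbers of the labels did not pair the libraries, since the deviations of same-numbered libraries correlated at 0.0148 and 0.0429. With a replicate block, in which Oasl1-/-Apoe-/- replicate 3 has no partner and adds nothing, Ifng in NK/T cells was 0.80 (limma adjusted p = 0.0217), 3017 genes passed in the whole aorta and Ifngr2 in smooth muscle cells did not pass (limma adjusted p = 0.157). Ly6c2 in macrophages was 2.55 with classes from clusters and -0.0404 with the marker gate. The thinned share of NK/T cells with Ifngr1 and Ifngr2 differed between genotypes by 0.671 percentage points at 1000 UMIs and by -0.0744 at 2000 UMIs. The endothelial Ifngr2 to Ifngr1 ratio was -2.33 from summed UMIs. The cause of these changes was not tested. Of 134 recomputed differences of the 5 genes, 121 kept direction and side of the threshold, 9 lost the call, 3 gained one and 1 turned. Of 1335 for list genes, 1251 kept both, 81 lost the call and 3 turned. With a filter at 0.2 CP10K Ifng could not be tested in the whole aorta. By the marker gate, an alternative chosen after seeing the data, 26 of 29 class levels moved by less than 1 SD. A median of 1769 UMIs in NK/T cells limits what can be said of Ifngr2 there.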

Other observations

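Il10rb, which lies between Ifnar2 and Ifnar1 on chromosome 16, is given for its position, a choice made after its values were seen. It was highest in macrophages at 2.94 ± 0.149 CP10K (SD, n = 5), above monocytes (1.49 ± 0.273) in 5 of 5 libraries, and lowest in smooth muscle cells at 0.220 ± 0.0229 CP10K. In the whole aorta it was 0.595 and 0.541 CP10K in the Apoe-/- and 1.02, 0.912 and 0.973 CP10K in the Oasl1-/-Apoe-/- libraries, without overlap. Within macrophages its log2 difference was 0.02 ± 0.07 (limma with Benjamini-Hochberg adjustment, adjusted p = 0.920). B cells, which were too few per library for the test within classes, had the highest mean Ifnar1 level in CP10K of the 11 named classes with cells in every library, at 0.976 and 1.26 CP10K in the Apoe-/- and 1.23, 2.20 and 2.72 CP10K in the Oasl1-/-Apoe-/- libraries over 131 cells. This rests on 30 Ifnar1 UMIs at a median depth of 1367 UMIs.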
